A study of Mus musculus with 6 samples.

Results

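The 9 genes described here encode the lipoxygenases of the leukotriene pathway and the enzymes that act beside them: *Alox5*, *Alox5ap*, *Alox8*, *Alox12*, *Alox15*, *Ltc4s*, *Lta4h*, *Gpx4* and *Acsl4*. They were chosen by name, with earlier results of these data known, and each matched 1 of the 54532 genes in the expression table. The cells were granulosa cells (GCs), the somatic cells that surround the oocyte, of 3-week-old female ICR mice primed with 5 IU of PMSG, a gonadotropin that drives follicle growth. After 22 h the mice received PBS or 120 mg/kg of cyclophosphamide (CTX), an alkylating chemotherapeutic, by intraperitoneal injection, and GCs were taken 6 h later. Each group had 3 samples, each with the pooled GCs of 3 mice, so that the spread between samples is one between pools and differences between single mice were averaged out. No genetic change separated the groups.

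In the leukotriene pathway, phospholipases A2 release arachidonic acid from membranes, and 5-lipoxygenase (*Alox5*), helped by its activating protein FLAP (*Alox5ap*), turns it into the unstable epoxide LTA4. LTA4 hydrolase (*Lta4h*) makes the chemoattractant LTB4 from it, and LTC4 synthase (*Ltc4s*) joins it to glutathione to give the first cysteinyl leukotriene. The other lipoxygenases form further hydroperoxides of fatty acids, glutathione peroxidase 4 (*Gpx4*) reduces such hydroperoxides within membranes, and the acyl-CoA synthetase *Acsl4* favours arachidonic acid for return to phospholipids, which links the last pair to ferroptosis, a death by lipid peroxidation. *Alox5* and *Alox5ap* are best known from leukocytes.

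The values were FPKM, fragments per kilobase of gene scaled to library depth, from which whole reads per gene were rebuilt. Reads assigned to genes numbered 16005869 to 17790353 in the PBS samples and 17727770 to 18455011 in the CTX samples. Granulosa markers were abundant: 10 such genes, among them the inhibin subunit *Inha*, summed to 13033 to 14310 FPKM in PBS and to 11138 to 11985 FPKM in CTX. 7 of these 10 were lower in every CTX sample than in every PBS sample, beside 14.1% of all genes tested, and none was called changed by limma (4 at an unadjusted p under 0.05, with 0 called and 6 at an unadjusted p under 0.05 by voom). Over all 14463 genes tested, 2840 had an unadjusted p under 0.05 by limma. CTX replicate 2 stood apart from the other samples. Its root mean square deviation from its group mean over the tested genes was 0.495 on the log2 scale, against 0.276 to 0.419 in the other 5 samples. Its 6 theca and stroma markers summed to 9.98 FPKM, against 43.2 to 69.4 FPKM in the other 5. Most of this sum in PBS was *Cyp17a1*, at 30.8 to 34.4 FPKM, against 1.25 FPKM in CTX replicate 2. *Col1a1* and *Col3a1* were also far lower there, at 2.65 and 2.73 FPKM against at least 8.18 and 7.60 FPKM. *Dcn*, *Lum* and *Pdgfra* were only just lower, at 1.08, 1.91 and 0.354 FPKM against at least 1.21, 1.96 and 0.446 FPKM.

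*Alox5* lies on chromosome 6, 116410077 to 116461178, on the minus strand of mm10, and is annotated with 8 transcripts, 3 of them protein-coding. No other annotated gene overlaps it. Because this gene went from almost no reads to a measurable level, the 250 bases before its RefSeq start (GRCm38.p6, chr6:116461179-116461428, minus strand) are printed first, with a GC box (GGGCGG) in capitals. The primer pair used for *Alox5* in RT-qPCR is printed after it.
*Alox5* promoter: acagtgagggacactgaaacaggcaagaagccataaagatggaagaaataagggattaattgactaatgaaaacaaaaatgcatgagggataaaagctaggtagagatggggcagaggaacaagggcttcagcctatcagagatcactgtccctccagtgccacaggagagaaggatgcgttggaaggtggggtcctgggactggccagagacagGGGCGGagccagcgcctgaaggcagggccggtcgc
*Alox5* forward primer: actacatctacctcagcctcatt
*Alox5* reverse primer: ggtgacatcgtaggagtccac
The forward primer matched exon 1 (chromosome 6, 116460944 to 116460966) and the reverse primer exon 2 (116454295 to 116454315), which gives a product of 113 bases. In the window of 300 bases that ends 50 bases after the start, 4 motifs were searched on both strands. GGGCGG occurred at -35 on the gene's strand, without overlap with another motif, and 35.6% of 32817 such windows held it. The AP-1 motif TGANTCA did not occur, and 7.81% of all windows held it. The TATA box (TATAAA), held by 13.6% of all windows, and a p53 half-site, held by 8.36%, did not occur in these letters either. The window had a GC content of 55.7%, against a median of 52.7%, and 7 of the 9 genes had a window in the RefSeq table.

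*Alox5*, the enzyme that commits arachidonic acid to leukotrienes, was nearly silent in the PBS samples and transcribed in every CTX sample. It had 0, 1 and 1 reads in PBS replicates 1, 2 and 3, and 70, 40 and 71 reads in CTX replicates 1, 2 and 3. On the FPKM scale these were 0, 0.0133 and 0.0150 in PBS and 0.941, 0.549 and 0.965 in CTX, or 0.00944 ± 0.00822 against 0.818 ± 0.234 (mean ± SD, n = 3). All 3 PBS samples stood at or under 1 read, the groups did not overlap, and the lowest CTX sample was replicate 2. The groups held 2 and 181 reads in all, a ratio of 88.1 after correction for depth, with an exact 95% interval of 24.0 to 733 that covers counting error only. In bulk RNA, more *Alox5* per cell and more cells with *Alox5* cannot be told apart.

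The mean of *Alox5* over the 6 samples was 0.414 FPKM, under the minimum of 0.5 FPKM set for the test across genes, so that test did not include it. An exact permutation test of its log2(FPKM + 0.1) gave a two-sided p of 0.1, the smallest that 3 samples against 3 allow. Without the minimum, limma returned 3.04 on the log2 scale (adjusted p = 0.0165 with Benjamini-Hochberg adjustment, standard error 0.32). With a minimum of 0.1 FPKM, chosen after the data were seen, the log2 fold change was 3.04 (95% interval 2.27 to 3.81, adjusted p = 0.0104), and 0.626% of the 19335 genes then tested were called higher, at an adjusted p under 0.05 and over 2-fold. *Alox5* passed this minimum only through the CTX samples, its PBS mean being 0.00944 FPKM, so its entry into the test was not independent of its difference. These values are on the log2(FPKM + 0.1) scale, which draws in the change of a gene this low: with a pseudocount of 0.01 the value was 5.48, by voom on the rebuilt reads 5.76 (adjusted p = 0.0157 with Benjamini-Hochberg adjustment), and with a pseudocount of 1 it was 0.84, under 2-fold and so not called. Without CTX replicate 2 the log2 fold change in that fit was 3.27 (adjusted p = 0.0119, limma with Benjamini-Hochberg adjustment). The call did not hold when any 1 PBS replicate was left out (log2 fold change 2.97 to 3.07, adjusted p = 0.0583 to 0.0636) or when CTX replicate 3 was (2.91, adjusted p = 0.0737), with limma and Benjamini-Hochberg adjustment.

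**Figure D1:**
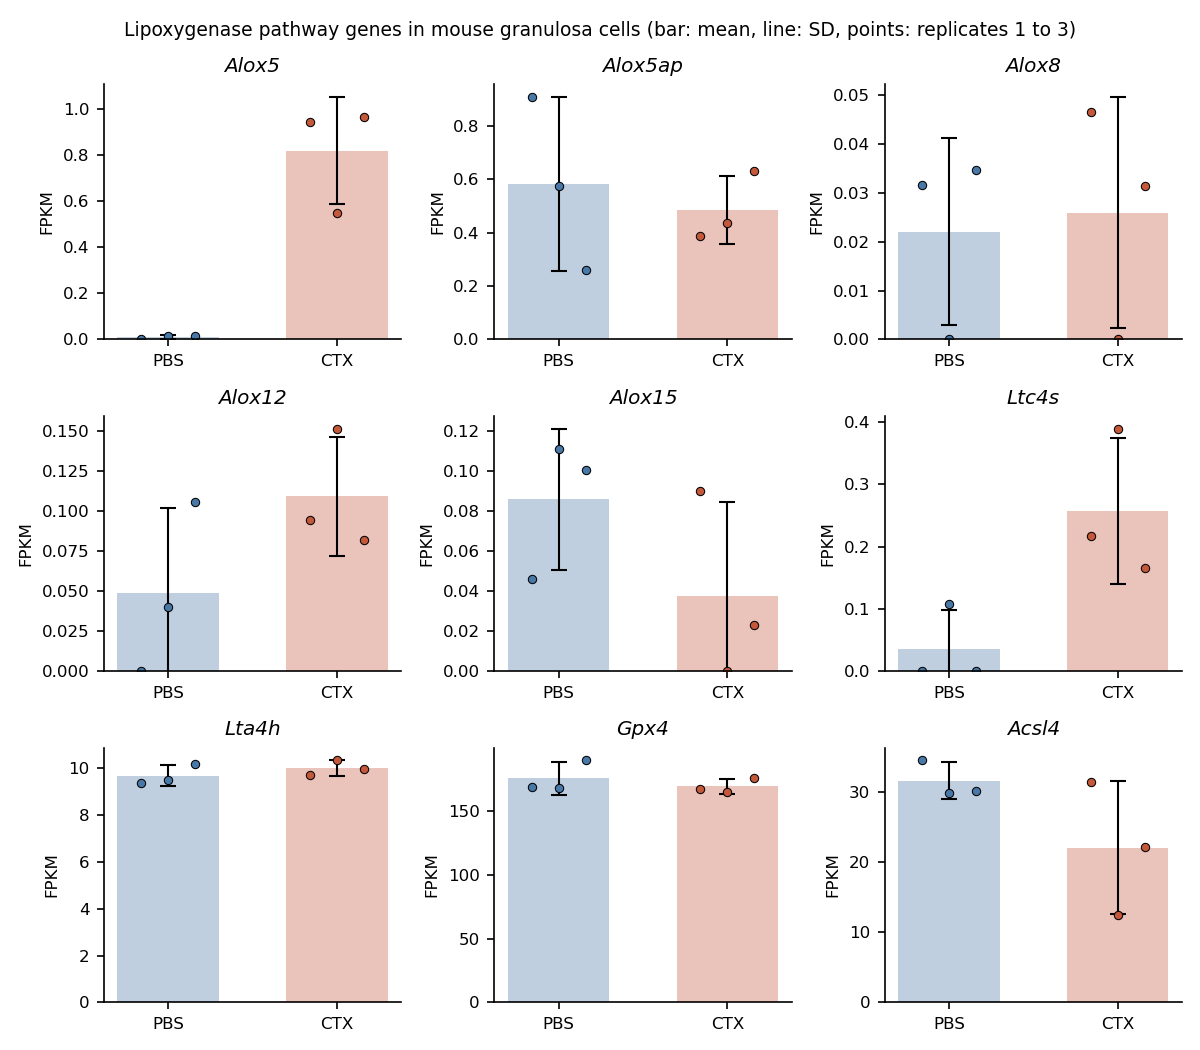
FPKM of the 9 genes in the PBS and CTX samples, 1 panel per gene with its own scale from 0. Bars are means, lines are SD (n = 3, lower ends end at 0) and points are replicates 1 to 3 from left to right. *Alox5* was at 0 to 0.0150 FPKM in PBS and 0.549 to 0.965 FPKM in CTX, while the bars of *Lta4h* and *Gpx4* were nearly level.

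The remaining lipoxygenases stayed at a few reads per library. *Alox12*, the platelet-type 12-lipoxygenase (chromosome 11, 70241457 to 70255353), had 0, 3 and 7 reads in PBS and 7, 11 and 6 in CTX. *Alox15*, the 12/15-lipoxygenase of macrophages and eosinophils (chromosome 11, 70344152 to 70352031), had 2, 5 and 4 reads in PBS and 4, 0 and 1 in CTX. *Alox8* (chromosome 11, 69183932 to 69197843), which makes the 8-hydroperoxide, had 2, 0 and 2 reads in PBS and 3, 0 and 2 in CTX. The groups overlapped for all 3 genes, and for *Alox8* no fold is given, since no library was above 3 reads. The read ratio of CTX over PBS was 2.34 for *Alox12* (exact 95% interval 1.08 to 5.47, counting error only, exact permutation p = 0.3). It was 0.442 for *Alox15* (0.121 to 1.38, exact permutation p = 0.2). None of the 3 reached the minimum for the test across genes. For *Alox12* a level of 3 reads corresponds to 0.0401 to 0.0453 FPKM, so that values near this cannot be ranked.

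The table holds 3 further lipoxygenase genes: *Alox12b*, *Alox12e* and *Aloxe3*, the first and the last known from the epidermal barrier. *Aloxe3*, the most abundant of them, had 6, 12 and 5 reads in PBS and 10, 3 and 4 in CTX. The other 2 had at most 3 reads in any sample. *Alox5* was therefore the lipoxygenase with the most reads in each CTX sample, whereas no PBS sample had more than 1 read of it. By FPKM it made up 0, 4.26 and 4.61% of the lipoxygenase total of 7 genes in PBS and 71.5, 73.2 and 80.7% in CTX. The summed FPKM of the 6 others was 0.130 to 0.311 in PBS and 0.201 to 0.376 in CTX, and these ranges overlapped.

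*Alox5ap*, the membrane protein that presents arachidonic acid to 5-lipoxygenase (chromosome 5, 149264767 to 149288153), overlapped between the groups. Its FPKM values were 0.909, 0.576 and 0.261 in PBS and 0.389, 0.437 and 0.629 in CTX, from 6 to 23 reads a sample. The PBS samples spanned the whole range of the CTX samples. The log2 fold change was -0.12 (95% interval -1.22 to 0.98, adjusted p = 0.897, limma with Benjamini-Hochberg adjustment), an interval that takes in changes of about 2-fold in either direction. Per length, *Alox5ap* was above *Alox5* in all 3 PBS samples and below it in all 3 CTX samples. 2 annotated genes overlap *Alox5ap* on the opposite strand, of which *Gm19719* had 0 to 3 reads in any sample and the other none.

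**Figure D2:**
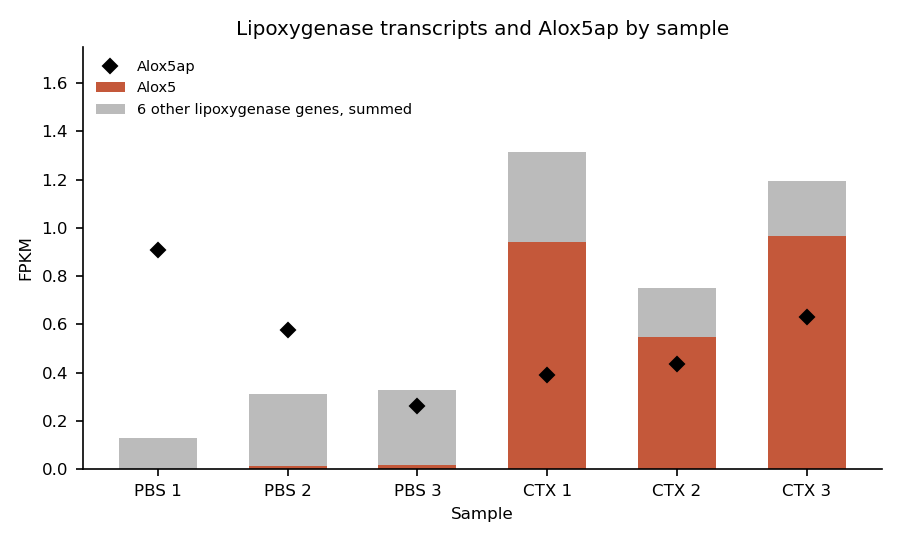
FPKM by sample of *Alox5* (red) and of the 6 other lipoxygenase genes summed (grey), stacked from 0, with *Alox5ap* as black diamonds. *Alox5* forms 71.5 to 80.7% of the bar in the 3 CTX samples and at most 4.61% in the 3 PBS samples, while the diamonds of both groups overlap.

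The enzymes that use LTA4 differed in level by more than 10-fold. *Lta4h*, which yields LTB4 and also acts as an aminopeptidase (chromosome 10, 93453411 to 93484875), was at 9.37, 9.48 and 10.2 FPKM in PBS and at 9.69, 10.4 and 9.95 FPKM in CTX, with 1005 to 1121 reads a sample. The groups overlapped, and the log2 fold change of 0.05 had a 95% interval of -0.12 to 0.21 (adjusted p = 0.713, limma with Benjamini-Hochberg adjustment). *Ltc4s* (chromosome 11, 50236461 to 50238616) had 0, 2 and 0 reads in PBS and 4, 7 and 3 in CTX. Every CTX sample was above every PBS sample, but the lowest held only 3 reads. The depth-corrected read ratio was 6.81 with an exact 95% interval of 1.57 to 61.8 for counting error only, and the exact permutation p was 0.1, the smallest possible. *Ltc4s* passed the minimum of 0.1 FPKM only through the CTX samples (0.0359 FPKM in PBS and 0.257 FPKM in CTX on average). In that limma fit its log2 fold change was 1.44 (adjusted p = 0.213 with Benjamini-Hochberg adjustment), which is not past the threshold. The antisense gene *Gm26542* overlaps *Ltc4s* and had 9, 5 and 3 reads in PBS and 2, 3 and 5 in CTX. The sources used here do not state whether reads were counted by strand, so the reads of this pair cannot be told apart.

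*Gpx4* and *Acsl4*, the genes tied to lipid peroxidation, were well expressed. *Gpx4* (chromosome 10, 80047166 to 80056439) was at 169, 168 and 190 FPKM in PBS and at 167, 165 and 176 FPKM in CTX. Its log2 fold change was -0.05 with a 95% interval of -0.24 to 0.14 (adjusted p = 0.741, limma with Benjamini-Hochberg adjustment). The groups overlapped, and the interval leaves room for a change of less than 1.5-fold either way.

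*Acsl4* (chromosome X, 142317993 to 142390535) was at 34.6, 29.9 and 30.2 FPKM in PBS and at 31.5, 12.5 and 22.1 FPKM in CTX. CTX replicate 1 lay within the PBS samples, replicate 3 below them and replicate 2 far below. The log2 fold change was -0.61 (95% interval -1.37 to 0.15, adjusted p = 0.328), without CTX replicate 2 it was -0.25 (adjusted p = 0.419), and without CTX replicate 1 it was -0.92 (adjusted p = 0.0926), each from limma with Benjamini-Hochberg adjustment. With samples weighted by their spread it was -0.50 (adjusted p = 0.0122), still under 2-fold and so not called. The share of all genes that reach such a p with weights is not given. The same library, CTX replicate 2, was also the one with the fewest *Alox5* reads in its group.

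Of the 9 genes, 4 were thus tested and 5 were under the minimum. None of the 4 was called at an adjusted p under 0.05 and over 2-fold by limma (0 at an unadjusted p under 0.05, and 0 by both measures with voom on the rebuilt reads), beside 0.961% of all 14463 genes tested. Their median log2 fold change was -0.086, against -0.0081 over all genes tested. In PBS the order of mean FPKM was *Gpx4*, *Acsl4*, *Lta4h* and *Alox5ap*, whose sample ranges did not touch, followed by *Alox15*, *Alox12*, *Ltc4s*, *Alox8* and *Alox5*, of which each overlapped its neighbour. In CTX, *Alox5* stood at rank 4 in place of rank 9, with sample values that overlapped those of *Alox5ap* at rank 5.

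Markers of leukocytes, in which *Alox5* is best known, were set beside it. The 16 macrophage and monocyte genes summed to 28.4 to 31.8 FPKM in PBS and to 48.1, 83.2 and 33.9 FPKM in CTX replicates 1, 2 and 3. The largest part of this sum was *Lyz2*, at 13.1, 13.7 and 14.3 FPKM in PBS and at 22.9, 45.8 and 14.7 FPKM in CTX. Of these 16, 6 were higher in every CTX sample, 5 of them among the 11 that were tested, beside 15.0% of all genes tested. Of the 11, 1 was called, beside 0.961% of all genes tested: *Cd14*, a receptor for bacterial lipopolysaccharide, which rose (0.821, 1.25 and 1.14 FPKM in PBS, 2.46, 3.23 and 2.56 FPKM in CTX, log2 fold change 1.29, adjusted p = 0.0347 by limma with Benjamini-Hochberg adjustment, not called by voom). The marker sum was highest in CTX replicate 2, where *Alox5* was lowest in the group, and lowest in CTX replicate 3, where *Alox5* had 71 reads, level with the 70 of CTX replicate 1. *Ptprc*, the pan-leukocyte antigen CD45, was at 0.0827, 0.0983 and 0.0708 FPKM in PBS and at 0.0814, 0.0923 and 0.0640 FPKM in CTX, and the groups overlapped.

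The 8 neutrophil genes summed to 1.38 to 2.69 FPKM in PBS and to 1.07 to 1.58 FPKM in CTX, with *Mpo* and *Elane*, proteins of the primary granules, at 0 reads in every sample. The 10 mast cell and eosinophil genes summed to 0.0201 to 0.284 FPKM in PBS and to 0.0759 to 0.195 FPKM in CTX, with 4 of them at 0 throughout. The 6 lymphocyte genes summed to 0.396 to 0.800 FPKM in PBS and to 0.540 to 0.679 FPKM in CTX. The 5 platelet genes summed to 1.31 to 1.51 FPKM in PBS and to 1.31 to 1.92 FPKM in CTX. For these 4 lists the ranges of the groups overlapped. The 5 oocyte genes (29.5 to 59.8 FPKM in PBS, 39.1 to 72.0 in CTX) overlapped as well. The 5 endothelial genes summed to 4.71 to 5.40 FPKM in PBS and to 1.83 to 4.13 FPKM in CTX, lower in each CTX sample. Most of this sum was *Cdh5* (4.17, 4.49 and 3.66 FPKM in PBS, 2.99, 1.25 and 3.11 FPKM in CTX). Of the 5, *Cdh5* and *Kdr* were lower in every CTX sample, while the groups overlapped for *Pecam1*, *Tie1* and *Emcn*. The part of other cell types in the difference of *Alox5* was not tested beyond these values.

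**Figure D3:**
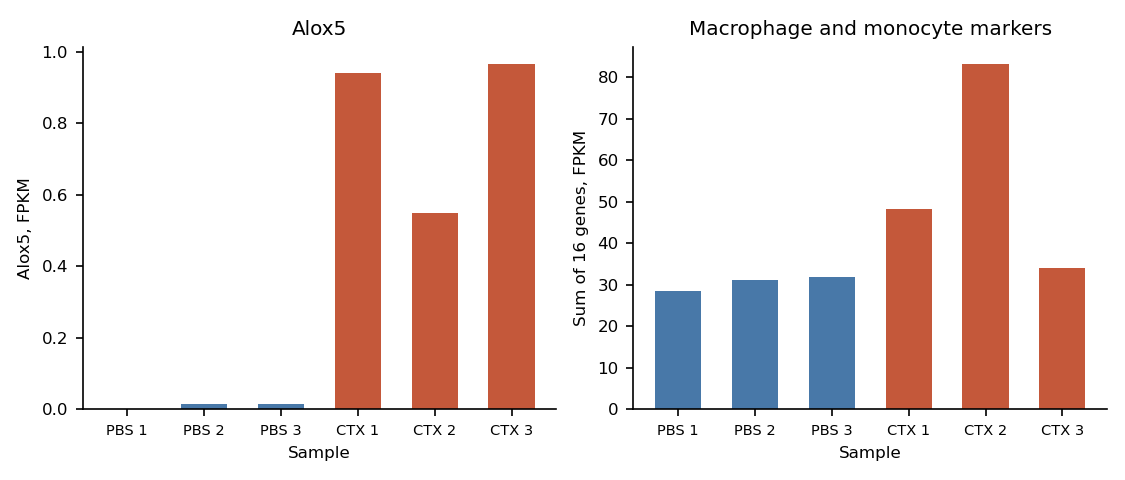
FPKM of *Alox5* (left) and summed FPKM of 16 macrophage and monocyte marker genes (right) in the 3 PBS (blue) and 3 CTX (red) samples, both from 0. The marker sum peaks at 83.2 FPKM in CTX replicate 2, the CTX sample with the lowest *Alox5* value, 0.549 FPKM. *Lyz2* alone gives 45.8 FPKM of that sum.

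Lists of related genes placed these 9 in the wider pathway. They comprised 111 genes in the table, of which 65 reached the minimum for the test. 1 of the 65 was called, beside the 0.961% of all genes tested. By limma, 20 of the 65 had an unadjusted p under 0.05, beside 2840 of all 14463 genes tested. For voom no such count over all genes is given. Of the 65, 16 (24.6%) were higher in every CTX sample than in every PBS sample, against 15.0% of all genes tested, and 10 (15.4%) were lower, against 14.1%. Their median log2 fold change was 0.052. The lists were chosen with earlier results of these data known, so these shares are descriptions.

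Genes that supply arachidonic acid came first. Of 19 phospholipases A2, 8 were tested and none was called by limma (2 at an unadjusted p under 0.05, with 0 called and 2 at an unadjusted p under 0.05 by voom), and their median log2 fold change was 0.0091. *Pla2g4a*, the cytosolic enzyme that favours arachidonic acid, was the most abundant, at 16.1, 15.8 and 16.7 FPKM in PBS and 16.8, 15.3 and 16.6 FPKM in CTX (log2 fold change 0.00049, 95% interval -0.16 to 0.16). *Pla2g12a*, a secreted form, was at 4.66, 4.28 and 5.35 FPKM in PBS and at 6.08, 9.29 and 7.99 FPKM in CTX. Its groups did not overlap, but its log2 fold change of 0.68 did not pass the test (adjusted p = 0.123, limma with Benjamini-Hochberg adjustment). Secreted *Pla2g3*, under the minimum, had 20, 16 and 13 reads in PBS and 11, 5 and 9 in CTX, and was not called in the fit with the minimum of 0.1 FPKM either (adjusted p = 0.381, limma with Benjamini-Hochberg adjustment).

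Receptors for the products were scarcely detected. *Ltb4r1* and *Ltb4r2*, the LTB4 receptors, had 1 to 6 and 0 to 5 reads a sample, and the cysteinyl leukotriene receptors *Cysltr1* and *Cysltr2* had 0 to 6 and 1 to 8. For each of these the groups overlapped. In the list of receptors and leukotriene metabolism, 5 of 19 genes were tested and none was called by limma (1 at an unadjusted p under 0.05, with 0 called and 1 at an unadjusted p under 0.05 by voom), with a median log2 fold change of -0.10. The most abundant by its mean over all 6 samples was *Mgst3*, a microsomal glutathione transferase, at 20.6, 24.3 and 24.8 FPKM in PBS and at 22.3, 34.4 and 29.6 FPKM in CTX. *Cotl1*, an actin-binding protein that also binds 5-lipoxygenase, was at 15.7, 17.3 and 17.5 FPKM in PBS and at 20.1, 50.5 and 28.5 FPKM in CTX. Every CTX sample was higher, with a log2 fold change of 0.86 and an adjusted p of 0.215 (limma, Benjamini-Hochberg), and 0.51 without CTX replicate 2.

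The called gene was *Ephx1*, the microsomal epoxide hydrolase, which opens epoxides of drugs and of fatty acids. It was at 9.21, 8.70 and 9.21 FPKM in PBS and at 39.4, 44.9 and 41.1 FPKM in CTX. All CTX samples were over 4-fold above the PBS samples, and the log2 fold change was 2.20 (adjusted p = 0.00045 by limma with Benjamini-Hochberg adjustment, standard error 0.073). *Ephx2*, the soluble hydrolase and the most abundant of the epoxide branch, was at 483, 472 and 518 FPKM in PBS and at 504, 164 and 310 FPKM in CTX. Its groups overlapped through CTX replicate 1, and its log2 fold change of -0.73 was not past the threshold (adjusted p = 0.328, limma with Benjamini-Hochberg adjustment), and was -0.31 without CTX replicate 2.

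The cyclooxygenase branch competes for the same substrate. Of its 11 tested genes of 20, none was called by limma (3 at an unadjusted p under 0.05). By voom, 1 was called and 3 had an unadjusted p under 0.05. 4 of the 11 were lower in every CTX sample, beside 14.1% of all genes tested, and the median log2 fold change was -0.28. *Ptgs1*, cyclooxygenase 1, was at 2.56, 1.81 and 2.51 FPKM in PBS and at 1.52, 0.0726 and 0.532 FPKM in CTX. *Ptgs2*, the inducible cyclooxygenase 2 that ovulation depends on, was at 2.41, 4.85 and 2.82 FPKM in PBS and at 1.81, 0.566 and 1.41 FPKM in CTX. *Slco2a1*, the prostaglandin transporter, was at 1.55, 1.30 and 1.47 FPKM in PBS and at 0.713, 0.225 and 0.379 FPKM in CTX. In all 3 the CTX samples lay below the PBS samples, with replicate 2 the lowest.

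The log2 fold changes of *Ptgs1*, *Ptgs2* and *Slco2a1* were -2.08, -1.41 and -1.61 (adjusted p = 0.221, 0.179 and 0.101, limma with Benjamini-Hochberg adjustment), so none passed. Without CTX replicate 2 they were -1.23, -0.96 and -1.30. *Slco2a1* was the gene that voom called, with no share of all genes called by voom given beside it. *Tbxa2r*, the thromboxane receptor, was lower in every CTX sample too, with 0 reads in CTX replicate 2 (log2 fold change -1.43, or -0.46 without that library). *Slco2a1* and *Tbxa2r* passed the minimum of 0.5 FPKM only through the PBS samples, with means of 1.44 and 0.932 FPKM in PBS and 0.439 and 0.434 FPKM in CTX. *Ptger3*, a PGE2 receptor under the minimum, had 21, 16 and 25 reads in PBS and 31, 88 and 30 in CTX. *Ptges*, the inducible PGE2 synthase and the most abundant gene of the branch, had a log2 fold change of 0.0051 (95% interval -0.37 to 0.38).

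**Figure D4:**
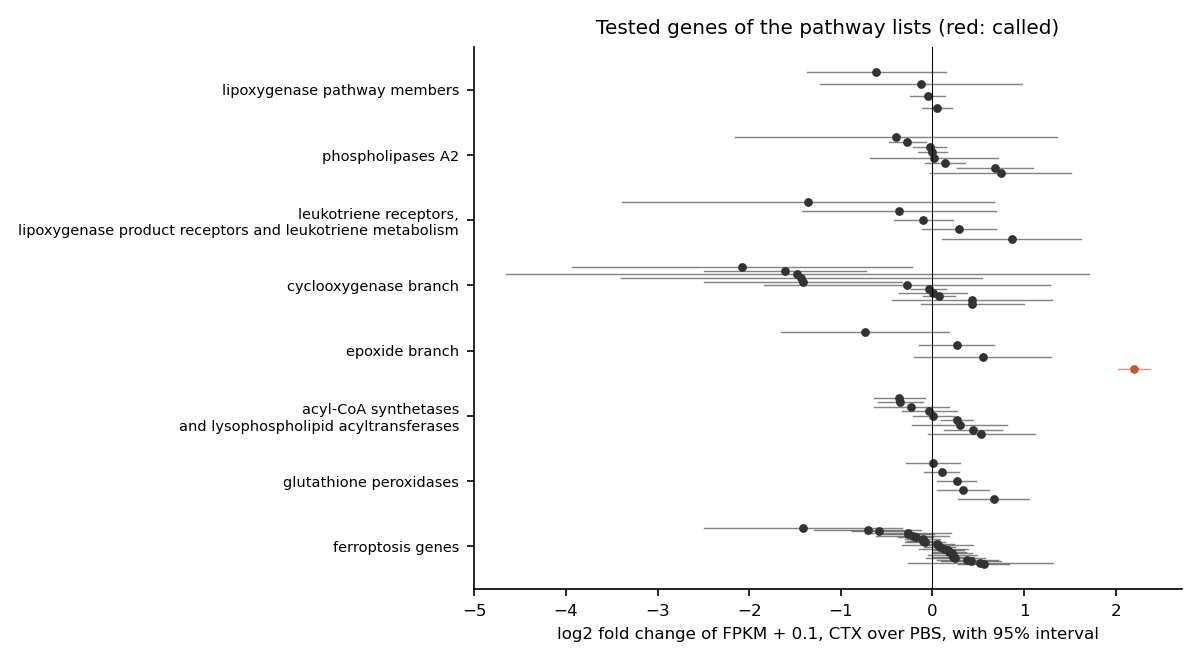
Log2 fold changes of CTX over PBS (points) with 95% intervals (lines) for the tested genes of each list, limma on log2(FPKM + 0.1). The only called gene, *Ephx1* at 2.20, is in red, and the lowest point is *Ptgs1* of the cyclooxygenase branch at -2.08.

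None of the tested genes that work beside *Acsl4* and *Gpx4* was called. Among 11 acyl-CoA synthetases and lysophospholipid acyltransferases, 9 were tested and none was called by limma (4 at an unadjusted p under 0.05, with 0 called and 4 by voom), and the median log2 fold change was 0.0089. The most abundant, *Lpcat3*, which inserts arachidonoyl chains into phospholipids, was at 47.7, 46.2 and 47.2 FPKM in PBS and at 43.7, 33.1 and 34.0 FPKM in CTX. Its CTX samples were lower in each case, by a log2 fold change of -0.36 (95% interval -0.64 to -0.085) that did not pass with an adjusted p of 0.179 (limma, Benjamini-Hochberg).

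The list of glutathione peroxidases held 8 genes, of which 5 were tested and none was called by limma (3 at an unadjusted p under 0.05, with 0 called and 3 by voom). 3 of the 5 were higher in every CTX sample, beside 15.0% of all genes tested, and the median log2 fold change was 0.27. *Gpx3*, the secreted form, was at 55.2, 52.6 and 58.4 FPKM in PBS and at 106, 93.6 and 68.9 FPKM in CTX (log2 fold change 0.67, 95% interval 0.28 to 1.06, adjusted p = 0.114, limma with Benjamini-Hochberg adjustment). *Gpx7*, of the endoplasmic reticulum, was the most abundant of this list and had a log2 fold change of 0.0033 (95% interval -0.29 to 0.30). *Gpx6* was under the minimum, with 0, 1 and 1 reads in PBS and 2, 7 and 12 in CTX.

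Of 27 ferroptosis genes, 24 were tested and none was called by limma (7 at an unadjusted p under 0.05, with 0 called and 8 by voom). By limma, 2840 of all 14463 genes tested had an unadjusted p under 0.05. 8 of the 24 were higher and 4 lower in every CTX sample, beside 15.0% and 14.1% of all genes tested. Their median log2 fold change was 0.069. *Tfrc*, the transferrin receptor that brings iron into the cell, was at 16.2, 14.8 and 15.3 FPKM in PBS and at 12.1, 8.89 and 9.91 FPKM in CTX. *Gch1*, which starts the synthesis of the antioxidant tetrahydrobiopterin, was at 61.8, 61.4 and 64.3 FPKM in PBS and at 49.99, 25.4 and 44.0 FPKM in CTX. Every CTX sample was below every PBS sample for both, with log2 fold changes of -0.59 (adjusted p = 0.0812) and -0.71 (adjusted p = 0.197) that did not pass in limma with Benjamini-Hochberg adjustment. That of *Gch1* was -0.41 without CTX replicate 2. *Fth1*, the ferritin heavy chain and the most abundant of the list, was at 934 to 1049 FPKM in PBS and 1044 to 1210 FPKM in CTX.

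Across all lists, 13 genes had groups that did not overlap and differed by more than 1.5-fold on the log2(FPKM + 0.1) scale, 10 of them tested. Of these 10, 4 were higher (*Ephx1*, *Pla2g12a*, *Cotl1* and *Gpx3*) and 6 lower (*Ptgs1*, *Ptgs2*, *Slco2a1*, *Tbxa2r*, *Tfrc* and *Gch1*). CTX replicate 2 was the CTX sample farthest from the PBS mean in 9 of the 10, *Gpx3* being the exception. By another measure, it was the CTX sample farthest from its group median in 49.1% of all genes tested. The share of all genes without overlap and over 1.5-fold apart was not computed. *Alox5* differed from those 10 in that its CTX replicate 2 was the nearest to PBS, a description of 1 library with no test.

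The profile of *Alox5* over the 6 samples was compared with that of each tested gene, as the root mean square distance between values of log2(FPKM + 0.1) centred on the PBS mean. The 5 nearest were *Atf3* (distance 0.18), *Eda2r* (0.19), *Egr2* (0.20), *Bbc3* (0.23) and *Ano3* (0.26). *Atf3*, a transcription factor of the stress response, was at 2.42, 3.67 and 2.67 FPKM in PBS and at 27.1, 18.8 and 34.1 FPKM in CTX. *Bbc3*, which encodes the proapoptotic protein PUMA, was at 2.77, 2.77 and 2.12 FPKM in PBS and at 20.2, 14.8 and 22.3 FPKM in CTX. All 5 had their lowest CTX value in replicate 2, as *Alox5* had, which the choice by distance over these same samples favours. *Eda2r*, a receptor of the TNF receptor family, *Egr2*, a zinc-finger transcription factor, and *Ano3*, of the anoctamin family, had log2 fold changes of 3.18, 3.02 and 3.07. *Ano3* passed the minimum of 0.5 FPKM only through the CTX samples, with 0.0342 to 0.101 FPKM in PBS. The distance favours genes with a like size of change and a like order of samples, and the 6 samples share their libraries, so the ranking is a description. On this scale the size of change of *Alox5* is set largely by the pseudocount of 0.1, being 5.48 with 0.01 and 0.84 with 1. *Atf3*, *Eda2r*, *Egr2* and *Bbc3* were at 1.18 FPKM or more in PBS, so their nearness to *Alox5* in size depends on that choice.

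**Figure D5:**
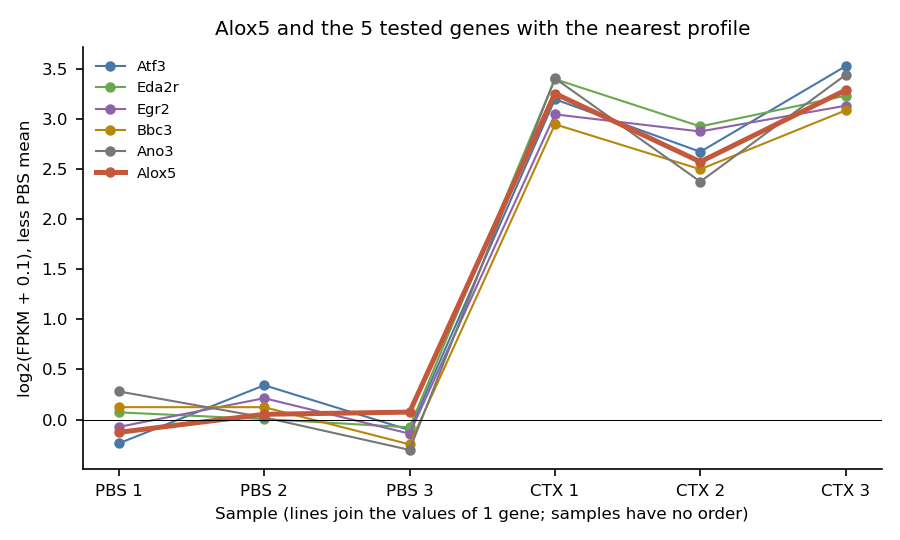
Values of log2(FPKM + 0.1), less the mean of the PBS samples, in the 6 samples for *Alox5* (thick line) and the 5 tested genes nearest to it. All 6 genes lie near 0 in PBS and between 2.37 and 3.52 in CTX, where the height of *Alox5* depends on the pseudocount of 0.1. The lowest CTX value is in replicate 2, a likeness that the choice of the 5 by distance favours.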

How the data were processed

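RNA-seq was performed on 6 samples of mouse GCs. The authors deposited FPKM per gene and sample. Per the submitters' processing notes, the tools included CASAVA 1.8, fastp, HISAT2 2.0.5, featureCounts 1.5.0-p3 and DESeq2 1.20.0, with mm10. The authors' group means, fold changes and p-values in the same table were not used. FPKM times gene length gave whole reads, within 0.02 of a read, for every value checked. Only values with low read numbers were checked, and higher ones were rounded to whole reads. The coordinates of the 9 genes equal those of GENCODE M21, and the lists comprised the genes named in the report with their pathway neighbours.

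Genes with a mean of at least 0.5 FPKM were tested with limma 3.58.1 (R 4.3.3) on log2(FPKM + 0.1), with a trend and Benjamini-Hochberg adjustment over all of them, and called at an adjusted p under 0.05 and over 2-fold. The script was tested on simulated data. Single genes were tested by exact permutation (SciPy 1.17.1). Other pseudocounts, minimums, scalings, a replicate block, weights, voom and each replicate left out were tried. The text names the 9 genes, pathway genes that were called, or over 1.5-fold apart without overlap, or the most abundant of their list, markers that touch a result, and the 5 genes nearest to *Alox5*. *Ltb4r1*, *Ltb4r2*, *Cysltr1* and *Cysltr2* were added for their role. Members and lists were chosen with earlier results of these data known. Intervals of reads cover counting error only.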

Additional observations from a re-analysis of the deposited data

How the results depend on the processing

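The log2 difference of *Alox5* was 3.04 on the log2(FPKM + 0.1) scale, with no test. It was 0.84 with a pseudocount of 1 and 5.48 with 0.01, 2.91 to 3.27 with each replicate left out in turn, and 3.04 and called with no minimum or with one of 0.1 FPKM. In the fit at 0.1 FPKM, added after the data were seen, the call was lost with a pseudocount of 1 (0.84, adjusted p = 0.0275, under 2-fold) and with a replicate block (3.04, adjusted p = 0.103). The call held without CTX replicate 1 (2.93) or CTX replicate 2 (3.27). It was also lost without any 1 PBS replicate or CTX replicate 3 (2.91 to 3.07). The cause was not tested. Deviations from the group mean correlated at 0.0058 to 0.056 between same-numbered samples of the groups and at -0.0756 to 0.0593 between the others. With 3 samples a group, such values cannot decide whether the numbers pair the samples. The block changed no call among the members and pathway genes tested at 0.5 FPKM. The count of called members was 0, and 1 (*Alox5*) without a minimum or at 0.1 FPKM. The count of called pathway genes was 1, 4 with sample weights (*Ephx1*, *Ptgs1*, *Ptgs2* and *Slco2a1*), 2 with voom (*Ephx1* and *Slco2a1*), and 1 to 2 with a replicate left out. The shares of all genes called in those other fits are not given, so these counts have no background beside them. *Alox5ap* turned to 0.095 with weights and 0.031 after quantile normalization, and *Gpx4*, at -0.081 to 0.0095 with a replicate left out, to 0.028 with weights, none of them called. Depth limits *Alox8*, *Alox12*, *Alox15* and *Ltc4s*, each with 0 to 11 reads a library.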

Other observations

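*Alox5* was 1 of few genes that went from the floor to clear detection. Of 34800 genes with at most 3 reads in every PBS sample, 7 (0.0201%) had at least 10 reads in every CTX sample, limits set after the data were seen. Only 22541 to 23465 of the 54532 genes had a read in a given sample. The 34800 thus include many genes without reads, and the percentage depends on them. Ranked by the lowest CTX sample, *Alox5* with 40 reads was second, after the RNA-binding protein gene *Celf5* (2, 0 and 1 reads in PBS, 98, 51 and 166 in CTX). *Sec14l5* (0, 3 and 1 reads in PBS, 62, 24 and 80 in CTX), *Cxcl10*, a chemokine induced by interferon (1, 1 and 0 reads in PBS, 13, 31 and 25 in CTX), and *Kcnj4*, a potassium channel (0, 1 and 1 reads in PBS, 18, 17 and 10 in CTX), were among the others. The other 2 of the 7 were antisense genes, *5830418P13Rik* and *AC110166.1*. All were named after their values were seen. *Celf5* and *Sec14l5*, like *Alox5*, had their lowest CTX value in replicate 2, whereas *Cxcl10* had its highest there. No test was made on this selection.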
